A study of Homo sapiens with 16 samples.

Results

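The comparison asked where 2 human mammary cell lines answered 2-deoxy-glucose (2DG) differently. 2DG is a glucose analogue that is taken up and phosphorylated but not carried through glycolysis, and it also enters the sugar chains of glycoproteins. For each gene the response was the mean log2 array value with 2DG minus that on vehicle, and the difference of response was the response in MDA-MB-231 minus the response in MCF10A, so that a positive difference means a higher response in MDA-MB-231. All 16 arrays of the series and all 19775 genes measured entered the comparison, with 1 probe set per gene (the one brightest on average over the 16 arrays). The 4 groups were MCF10A given water as vehicle, MCF10A given 50 mM 2DG, MDA-MB-231 given water and MDA-MB-231 given 50 mM 2DG. Each had 4 biological replicates, lettered A to D here and in the labels, which the design text calls independent and performed in parallel. Cells were seeded sparsely in 17.5 mM glucose, treated the day after and collected 24 h later. The labels name no added allele or transgene in either line.

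MCF10A cells are immortalized breast epithelium that does not form tumours, and MDA-MB-231 cells come from a breast cancer and have mesenchymal traits. Each is a single line, so the comparison is between these 2 lines and not between normal and malignant cells. The media were different as well: that of MCF10A held horse serum, insulin, epidermal growth factor (EGF), cholera toxin and hydrocortisone, that of MDA-MB-231 held fetal bovine serum without these supplements, and the glutamine concentrations were unequal. Line and medium therefore cannot be told apart in any result that follows. On vehicle, 7 of 8 measured markers of basal mammary epithelium were higher in MCF10A by at least 1 on the log2 scale, among them the cadherin CDH1 at 13.06 against 4.62 in MDA-MB-231. Of 8 mesenchymal markers, ZEB1, AXL and CDH11 were higher in MDA-MB-231 by at least 1, while SPARC and TGFBI were higher in MCF10A. Medians of single arrays were 6.17 to 6.22, and the median SD of a gene within a group was 0.0759 to 0.0858. The actin control probe sets gave a 3' to 5' ratio, which rises as RNA degrades, of 0.393 ± 0.067 (SD, n = 4, log2) for vehicle-treated MCF10A and 0.55 ± 0.0678 with 2DG. The MDA-MB-231 arrays gave 0.597 ± 0.331 without 2DG, where replicate B stood at 1.09 and the others at 0.38 to 0.47, and 1.03 ± 0.0714 with 2DG. With this ratio as a covariate, the counts of opposite responses given below were 100 and 178 in place of 102 and 165, those of MDA-MB-231 alone 93 and 159 in place of 94 and 147, and those of MCF10A alone 247 and 143 in place of 312 and 167.

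Cells deprived of usable glucose are known to slow division, to induce the integrated stress response through the factor ATF4, and, when glycoprotein folding is disturbed, to induce the unfolded protein response of the endoplasmic reticulum. Growth factor signals act in the same cells through the MAPK cascade, whose immediate-early genes and feedback inhibitors are transcribed within hours, and through the kinase AKT, which holds the FOXO factors out of the nucleus. Inflammatory genes such as CXCL8 are classical targets of NF-kB and of AP-1, the factor built from FOS and JUN proteins.

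The difference of response was called in 9065 genes, 45.8% of those tested (limma, p under 0.05 after Benjamini-Hochberg adjustment over the 19775 genes). It was higher in MDA-MB-231 in 4401 genes (22.3%) and lower in 4664 (23.6%). With arrays shifted to the same median these counts were 4893 and 4293, so that the larger side depended on the scaling. Since the median standard error (SE) of a difference was 0.0941, many of these calls were small. A strong difference, one that was called and at least 1 in size (a factor of 2), was found in 736 genes on the higher side (3.72%) and 1019 on the lower side (5.15%), and 8 and 12 genes reached a size of 4. The median difference of all genes was 0.005. The response itself rose in 29% and fell in 25.2% of all genes in MCF10A, and rose in 25.5% and fell in 25.4% in MDA-MB-231. Both responses were called in 7797 genes, with the same sign in 6171 and opposite signs in 1626. Across genes, which are not independent replicates, the responses had a Pearson correlation of 0.54.

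**Figure D1:**
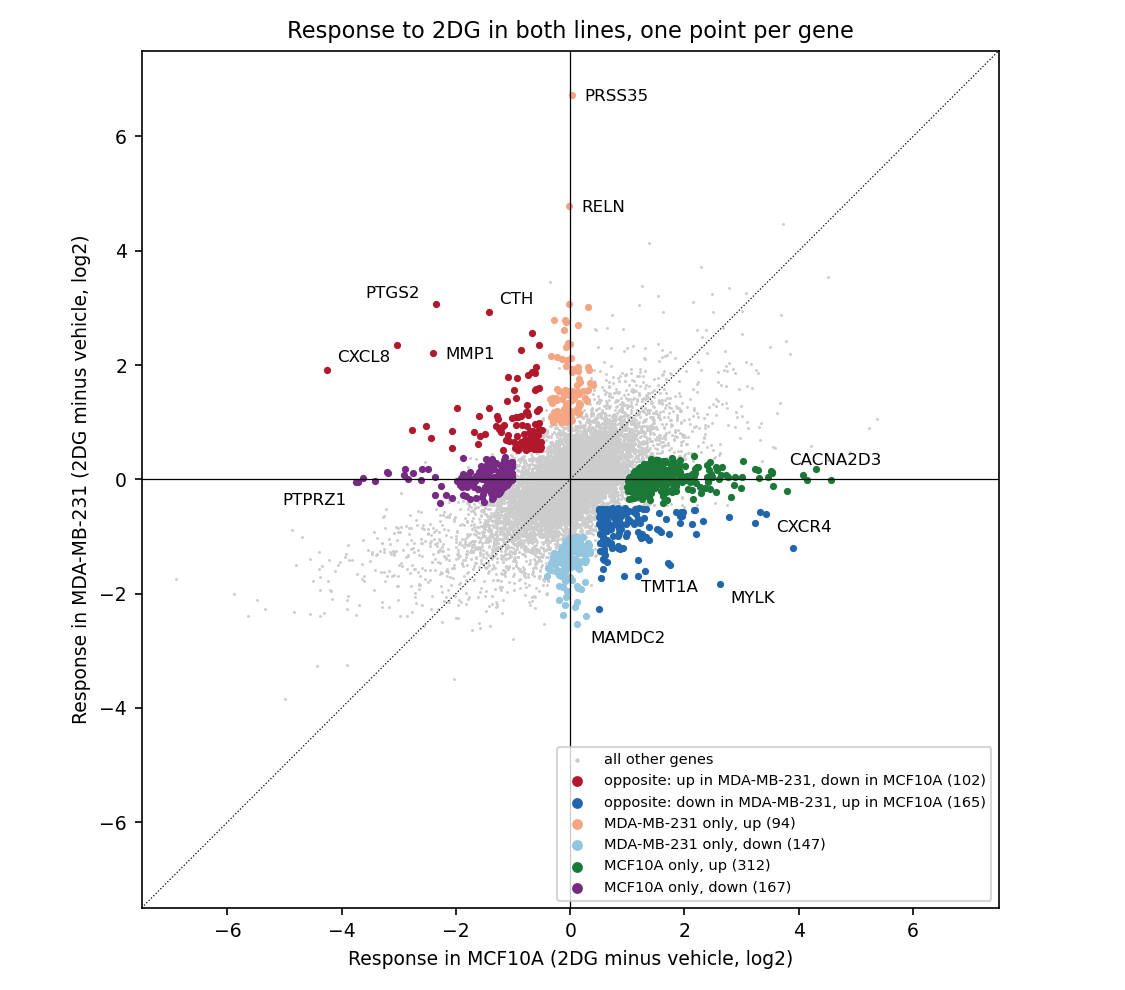
Response to 2DG (2DG minus vehicle, mean of 4 arrays each, log2) in MCF10A on the x axis and in MDA-MB-231 on the y axis, 1 point per gene for 19775 genes; colours mark the 6 classes with their numbers of genes and the dotted line marks equal responses. Opposite responses lie in the upper left (102 genes) and lower right (165 genes), and responses of one line lie along the axes, with PRSS35 at 6.73 on the y axis and CACNA2D3 at 4.57 on the x axis.

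The 1755 strong differences were sorted by what each line did. Opposite responses, called in both lines with opposite signs and at least 0.5 in size in each, made up 267 genes: 102 rose in MDA-MB-231 and fell in MCF10A, and 165 fell in MDA-MB-231 and rose in MCF10A. A response of one line was called and at least 1 in size there, while the 95% interval of the response in the other line lay within 0.5 of 0. By that definition 94 genes rose and 147 fell in MDA-MB-231, and 312 rose and 167 fell in MCF10A. In 416 further genes both lines moved the same way by different amounts, 76 of them by more in MDA-MB-231 and 340 by more in MCF10A. The remaining 352 had a response under 0.5 in at least 1 line and met none of these definitions. At the limit of 0.5, CREBZF (0.50 in MCF10A, -0.78 in MDA-MB-231) lay just inside the opposite class and LIMK2 (0.65 and -0.50, or -0.4975 before rounding) just outside.

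A line in which a gene is near the lowest array values cannot show a fall, and RMA values understate changes there. A gene was taken as low in a line when both of its group means were under 5.43, the lower quartile of all group means, which applied to 23.5% of all genes in MCF10A and 23.8% in MDA-MB-231. Of the 94 genes that rose in MDA-MB-231 alone by the definition above, 23 (24.5%) were low in MCF10A, and of the 147 that fell, 43 (29.3%). Of the 312 and 167 genes of MCF10A, 93 (29.8%) and 34 (20.4%) were low in MDA-MB-231. The opposite classes held fewer such genes, 6 of 102 and 4 of 165 in MCF10A and 2 and 3 in MDA-MB-231.

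The classes depend on the probe set that stands for a gene, since probe sets of one gene can read different transcripts. A next brightest probe set above the low limit was present for 57 of the 102 and 102 of the 165 genes with opposite responses. It gave a called difference of the same sign in 44 and 74 of them and of the other sign in 0 and 5, and both responses again had opposite signs in 36 and 72. All limits of the class were met again in 15 and 29. For responses of MDA-MB-231 alone, the difference was called with the same sign in 37 of 45 rises and 47 of 71 falls, and the class was met again in 13 and 13. For MCF10A alone it was called with the same sign in 93 of 135 rises and 61 of 73 falls, and the class was met in 37 and 29. A class adds limits to a called difference of the same sign, so it could not be met again more often than the direction. Each class below is that of the brightest probe set.

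Genes of inflammation and matrix breakdown were among those with the largest differences of the 102 that rose in MDA-MB-231 and fell in MCF10A. CXCL8, which encodes the neutrophil chemokine interleukin 8 (measured by an _x_at probe set), read 11.79, 11.73, 11.77 and 11.76 on the MCF10A vehicle arrays A to D and 7.48, 7.54, 7.55 and 7.45 with 2DG. In MDA-MB-231, CXCL8 read 7.95, 7.98, 8.08 and 8.28 on vehicle and 10.06, 9.99, 9.95 and 9.93 with 2DG. The order of the lines was thus turned over: MCF10A had the higher CXCL8 values on every vehicle array and MDA-MB-231 on every 2DG array, and within each line the treated and vehicle arrays did not overlap. CXCL8 fell by 4.26 in MCF10A and rose by 1.91 in MDA-MB-231, a difference of 6.17 ± 0.0834 (SE, n = 4 per group; limma adjusted p = 7.45e-17). Such a probe set can bind related transcripts, and the other CXCL8 probe set gave a difference of 6.09.

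PTGS2, the inducible cyclooxygenase that starts prostaglandin synthesis, behaved alike. In MCF10A it read 8.26, 8.24, 8.28 and 8.18 on vehicle and 5.81, 5.94, 6.05 and 5.78 with 2DG. The MDA-MB-231 arrays read 6.37, 6.70, 6.67 and 6.74 without and 9.60, 9.74, 9.72 and 9.71 with 2DG. Again every treated array lay outside the range of the vehicle arrays, below it in MCF10A and above it in MDA-MB-231. The responses of PTGS2 were -2.35 and 3.07, and the difference was 5.42 ± 0.106 (limma adjusted p = 4.88e-15); a second probe set gave 5.96.

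MMP1, the interstitial collagenase, read 5.92, 6.20, 6.27 and 6.24 on the MCF10A vehicle arrays and 3.80, 3.53, 3.99 and 3.70 with 2DG. On the MDA-MB-231 arrays it read 7.47, 7.85, 7.53 and 7.62 on vehicle and 9.85, 9.76, 9.91 and 9.82 with 2DG. MMP1 was the higher in MDA-MB-231 already on vehicle, and 2DG widened the gap between the lines, with a difference of 4.62 ± 0.141 (limma adjusted p = 3.55e-13). The stromelysin MMP10 fell by 2.78 in MCF10A and rose by 0.86 in MDA-MB-231. PLAT, the tissue plasminogen activator, had responses of -0.66 and 2.56, and the protease inhibitor TFPI2 of -1.59 and 1.11.

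Of 31 measured genes of the NF-kB and inflammatory list, 17 had a called difference on the higher side and 4 on the lower side (all genes 22.3% and 23.6%). Strong differences were found in 10 of them on the higher side and none on the lower side (all genes 3.72% and 5.15%). The median difference was 0.48 over the list. In MCF10A, 8 members rose and 16 fell (all genes 29% and 25.2%); in MDA-MB-231, 16 rose and 2 fell (all genes 25.5% and 25.4%). The members with opposite responses were CXCL8, PTGS2, the chemokine CXCL3 (-1.49 and 0.79), the cytokine IL1A (-0.80 and 0.79) and LIF (-0.59 and 0.66), the first response being that of MCF10A. A dimmer IL1A probe set gave 0.13 and 0.145, and its difference was not called. The neutrophil chemokine CXCL1 fell by 3.63 in MCF10A and had a response of 0.023 in MDA-MB-231, and CXCL2 and IL1B fell by 2.37 and 1.56 in MCF10A. IL24 and the receptor-associated kinase IRAK2 rose in MDA-MB-231, by 1.47 and 1.68. On dim IRAK2 probe sets the differences were 0.42 and 0.1525, neither called. CXCL1, CXCL2 and CXCL3 are close in sequence, so their array values may not be fully separate. NFKBIA, the inhibitor that NF-kB itself induces, rose in both lines by about the same amount, 1.47 and 1.56. The NF-kB subunits REL and RELB had higher responses in MCF10A (0.97 and 0.89) than in MDA-MB-231 (0.15 and 0.14).

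**Figure D2:**
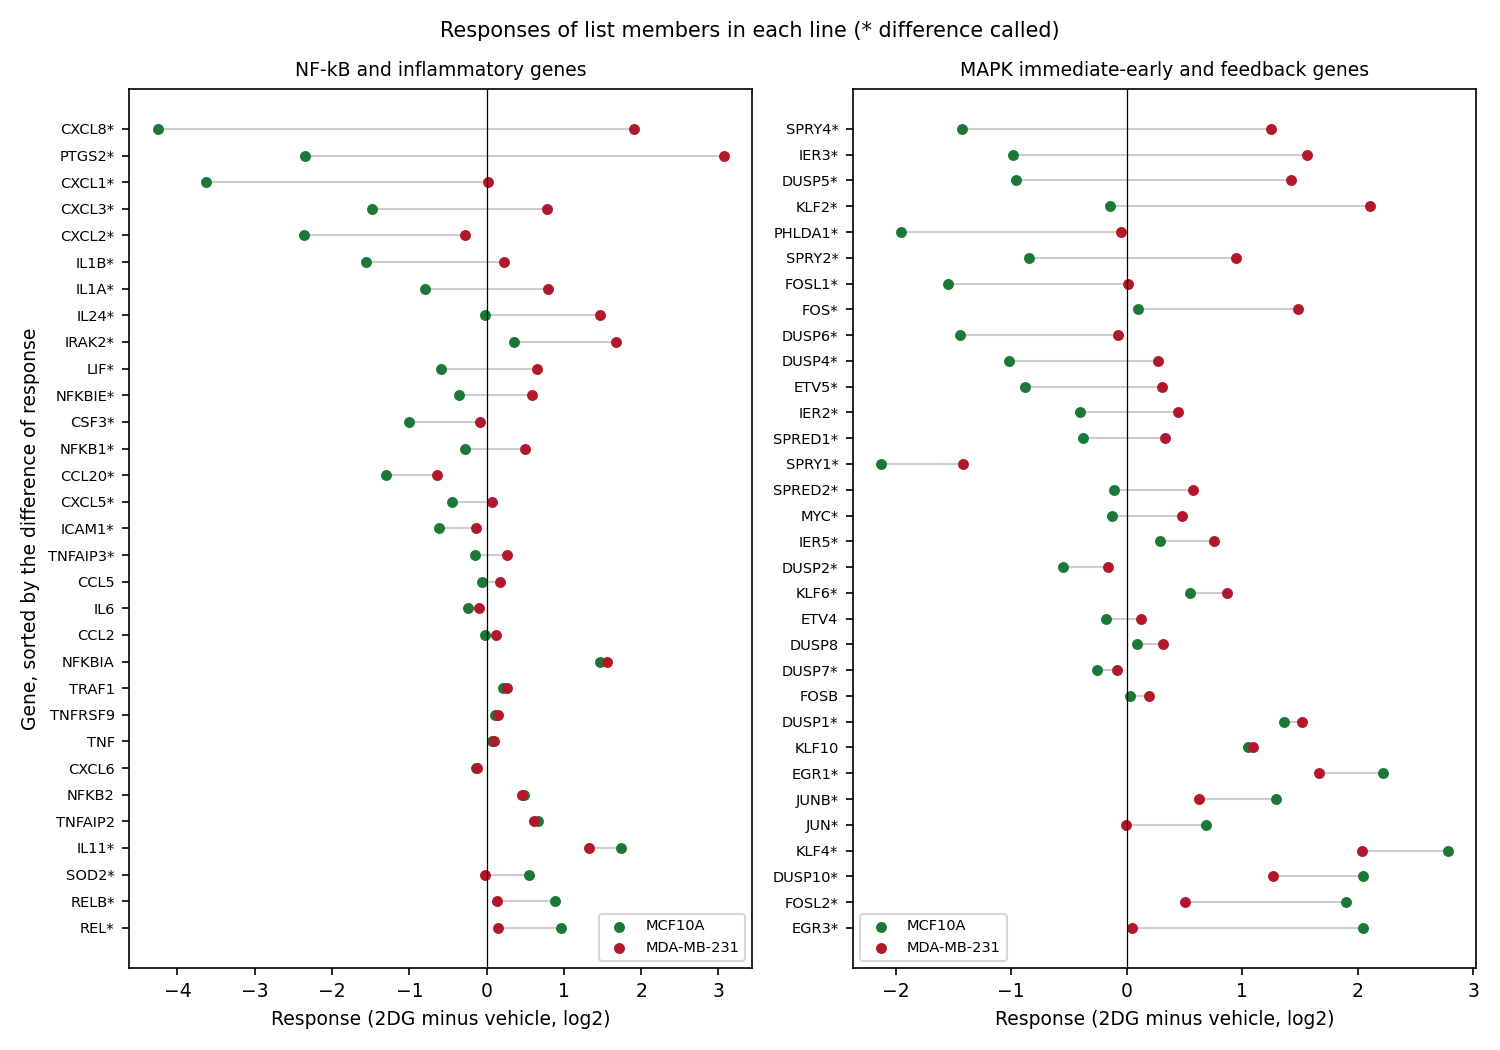
Response to 2DG (log2, x axis) in MCF10A (green) and MDA-MB-231 (red) for each measured member of 2 gene lists, sorted by the difference of response, with an asterisk where the difference was called. At the top of the left panel CXCL8 runs from -4.26 to 1.91, and at the top of the right panel SPRY4 runs from -1.43 to 1.25; EGR3 at the bottom runs the other way.

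The start regions of these genes were searched for short factor motifs, since their members moved together. RefSeq promoters (build GRCh38.p14, 250 bases before to 50 after the start site) were given for 15384 of the tested genes. The motifs, read on both strands, were TGANTCA for AP-1, GGAATTTCC for NF-kB, TGACGTCA for CRE, TGATGNAA for the amino acid response element and CACGTG for the E-box, where N is any base. The following 4 promoters were chosen from the inflammatory and matrix genes above because they hold an AP-1 or NF-kB motif, which capitals mark; IL1A, with an AP-1 motif, is not printed.
CXCL8: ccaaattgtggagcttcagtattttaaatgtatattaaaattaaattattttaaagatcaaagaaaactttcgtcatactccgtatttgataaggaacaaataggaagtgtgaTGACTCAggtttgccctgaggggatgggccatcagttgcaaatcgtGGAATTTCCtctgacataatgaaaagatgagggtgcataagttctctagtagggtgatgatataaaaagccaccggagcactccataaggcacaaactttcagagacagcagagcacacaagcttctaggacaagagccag
CXCL3: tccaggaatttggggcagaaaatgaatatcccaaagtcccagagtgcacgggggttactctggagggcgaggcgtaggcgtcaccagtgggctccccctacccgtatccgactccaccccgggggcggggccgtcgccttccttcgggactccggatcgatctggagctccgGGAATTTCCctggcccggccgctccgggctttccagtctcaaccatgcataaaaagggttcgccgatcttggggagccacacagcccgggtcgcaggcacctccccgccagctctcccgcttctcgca
MMP10: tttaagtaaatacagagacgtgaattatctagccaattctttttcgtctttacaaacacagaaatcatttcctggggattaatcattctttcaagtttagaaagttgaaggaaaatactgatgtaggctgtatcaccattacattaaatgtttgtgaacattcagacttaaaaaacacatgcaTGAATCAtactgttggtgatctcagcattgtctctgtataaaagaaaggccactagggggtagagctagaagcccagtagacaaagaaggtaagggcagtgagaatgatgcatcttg
TFPI2: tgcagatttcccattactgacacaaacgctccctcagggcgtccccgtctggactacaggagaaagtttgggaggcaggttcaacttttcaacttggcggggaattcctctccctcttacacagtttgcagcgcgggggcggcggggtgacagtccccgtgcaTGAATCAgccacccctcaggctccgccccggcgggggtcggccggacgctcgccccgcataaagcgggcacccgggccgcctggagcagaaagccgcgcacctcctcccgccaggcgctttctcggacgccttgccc
They lie at chr4:73740319-73740618 (CXCL8, plus strand), chr4:74038640-74038939 (CXCL3, minus strand), chr11:102780579-102780878 (MMP10, minus strand) and chr7:93890704-93891003 (TFPI2, minus strand). In the CXCL8 promoter the AP-1 motif began at position -137 and the NF-kB motif at -91 from the start site, and the NF-kB motif of CXCL3 began at -78. The AP-1 motifs of MMP10 and TFPI2 began at -67 and -87. The AP-1 motif was present in 898 of all 15384 promoters (5.84%). Among genes that rose in MDA-MB-231 and fell in MCF10A it was in 13 of 78 promoters (16.7%), among those with the reverse pattern in 5 of 139 (3.6%), and in the 4 classes of one line it was in 2.99% to 7.46%. The NF-kB motif was in 69 of all promoters (0.449%) and in 2 of the 78 (2.56%), CXCL8 and CXCL3. It was in none of the 139 with the reverse pattern and in 3 of 134 (2.24%) of the genes that fell in MCF10A alone. Among the 78, the amino acid response element was in 5 (6.41%, all promoters 2.62%), the CRE in 2 (2.56%, all 2.67%) and the E-box in 4 (5.13%, all 8.9%). These shares describe letters in a window and say nothing of binding.

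CTH encodes cystathionine gamma-lyase, which makes cysteine from cystathionine. It read 7.15, 6.89, 7.07 and 7.12 on the MCF10A vehicle arrays and 5.53, 5.70, 5.68 and 5.62 with 2DG. In MDA-MB-231, CTH read 9.39, 9.41, 9.42 and 9.39 on vehicle and 12.34, 12.34, 12.38 and 12.24 with 2DG. All CTH values were higher in MDA-MB-231 than in MCF10A, and 2DG moved the lines further apart. The difference was 4.35 ± 0.0769 (limma adjusted p = 2.17e-15), and 3.56 on the second probe set, where the fall in MCF10A was smaller (-0.58). CTH belongs to the ATF4 list, whose other members mostly rose in both lines. Of its 37 measured genes, 34 rose in MCF10A and 32 in MDA-MB-231 (all genes 29% and 25.5%). The difference was called on the higher side in 11 and on the lower side in 20 (all genes 22.3% and 23.6%). DDIT3, the CHOP factor, rose by 3.10 and 1.63, the serine synthesis enzyme PHGDH by 2.40 and 1.15, and NUPR1 by 3.01 and 1.12. STC2, a secreted glycoprotein hormone, rose by 2.40 in MCF10A and by 0.26 in MDA-MB-231. On the other side, the amino acid transporter chain SLC3A2 rose by 0.72 and 2.30 and the mTORC1 inhibitor DDIT4 by 0.42 and 1.92. ATF4 itself rose by 1.28 in MCF10A and 0.67 in MDA-MB-231, a difference of -0.61 ± 0.0527. The difference of TRIB3, a pseudokinase induced by ATF4 and CHOP, was -0.13 and did not pass (limma adjusted p = 0.104); it was -0.16 and passed (adjusted p = 0.0438) without MDA-MB-231 vehicle replicate C.

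SPRY4 is a feedback inhibitor of receptor tyrosine kinase and MAPK signals. On MCF10A arrays it read 8.40, 8.34, 8.50 and 8.32 on vehicle and 7.02, 6.98, 6.95 and 6.91 with 2DG. On MDA-MB-231 arrays it read 9.56, 9.79, 9.61 and 9.69 on vehicle and 10.88, 10.94, 10.87 and 10.97 with 2DG. Treated and vehicle values were separate in both lines, in opposite directions, and the difference was 2.68 ± 0.0741 (limma adjusted p = 1.12e-13). Of 32 measured MAPK immediate-early and feedback genes, 21 had a called difference on the higher side and 7 on the lower side. Over all genes these shares were 22.3% and 23.6%. Strong differences numbered 11 and 2 (all genes 3.72% and 5.15%), and the median difference was 0.54. In MCF10A 11 rose and 15 fell (all genes 29% and 25.2%), and in MDA-MB-231 22 rose and 1, SPRY1, fell (all genes 25.5% and 25.4%). SPRY2 (-0.85 in MCF10A, 0.95 in MDA-MB-231), the ERK phosphatase DUSP5 (-0.96 and 1.42) and the early response gene IER3 (-0.99 and 1.56) were opposite as well. The ERK phosphatases DUSP6 and DUSP4, the AP-1 subunit FOSL1 and PHLDA1 fell in MCF10A by 1.44, 1.02, 1.55 and 1.95, with responses between -0.078 and 0.27 in MDA-MB-231. On the 5 other PHLDA1 probe sets the difference was 0.78 to 1.94, and 3 of these had responses of 0.775 to 1.33 in MDA-MB-231. FOS and KLF2 rose in MDA-MB-231 by 1.49 and 2.10. On a dimmer KLF2 probe set the rise in MDA-MB-231 was 0.28, with a called difference of 0.33. The zinc finger factor EGR3 ran the other way, with a rise of 2.05 in MCF10A, and EGR1 rose in both lines (2.22 and 1.67). Of 12 measured EGF ligands and receptors, 3 were called on the higher side and 5 on the lower side (all genes 22.3% and 23.6%). The ligand EREG had responses of -0.60 in MCF10A and 1.57 in MDA-MB-231. The receptor ERBB3 rose by 1.85 in MCF10A with -0.10 in MDA-MB-231, and a dimmer probe set gave 1.75 and -0.07. Its remaining dimmer probe sets gave differences of -0.0175 to 0.078, which were not called.

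Further genes with the largest opposite responses of this direction were the metalloprotease ADAMTS6 (-1.99 in MCF10A, 1.25 in MDA-MB-231), the protease inhibitor SERPINI1 (-1.28 and 1.12), the natural killer cell ligand NCR3LG1 (-1.11 and 1.37), the pseudogene transcript SFTA1P (-1.09 and 1.79) and the cytokine IL7 (-1.26 and 1.06). TIGAR, a phosphatase that restrains glycolysis, had responses of -1.17 and 0.94, and the lysosomal galactosidase GLA of -0.70 and 0.55. The median response over the 102 genes was -0.79 in MCF10A and 0.83 in MDA-MB-231, sizes that the definition of the class partly sets.

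**Figure D3:**
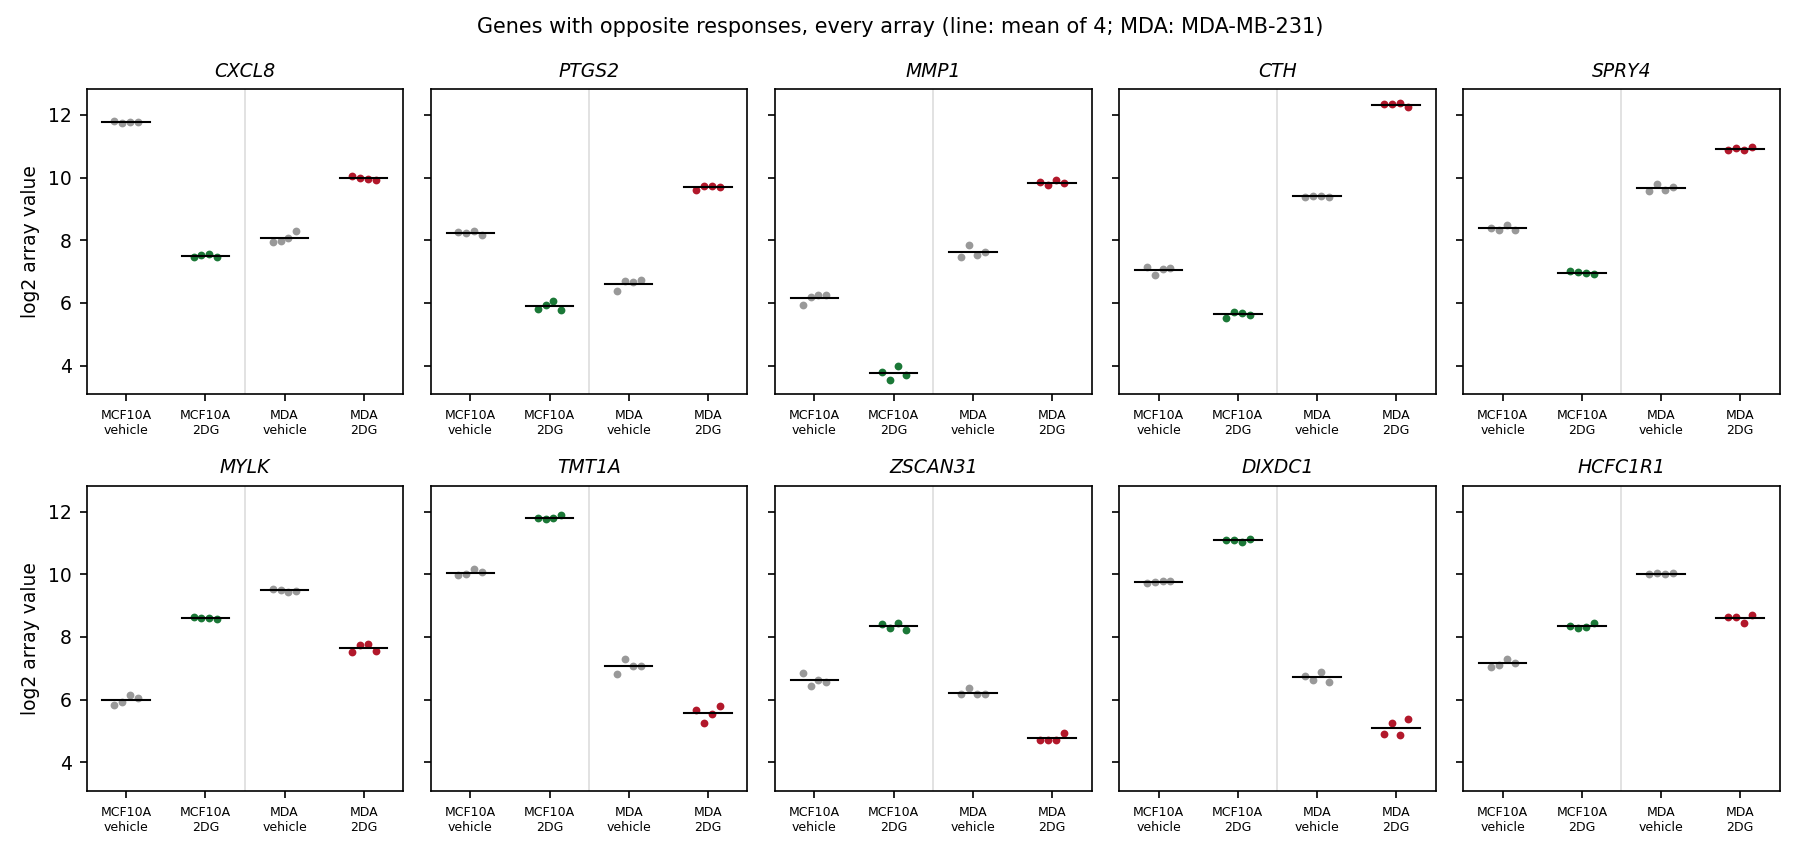
Log2 array value (y axis, shared) of 10 genes with opposite responses on each of the 4 arrays per group (points), with the group mean as a line. In the upper row values fall with 2DG in MCF10A and rise in MDA-MB-231, as in CXCL8 from a mean of 11.76 to 7.51 and from 8.07 to 9.98; in the lower row they rise in MCF10A and fall in MDA-MB-231, as in MYLK.

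The 165 genes that fell in MDA-MB-231 and rose in MCF10A had median responses of -0.74 and 0.79. MYLK, the kinase that phosphorylates myosin light chain and drives contraction, read 5.84, 5.93, 6.16 and 6.06 on the MCF10A vehicle arrays and 8.65, 8.62, 8.62 and 8.57 with 2DG. On MDA-MB-231 vehicle arrays MYLK read 9.52, 9.50, 9.45 and 9.47, and 7.53, 7.75, 7.78 and 7.55 with 2DG. MDA-MB-231 was higher than MCF10A on vehicle and lower on every treated array, and the treated arrays did not overlap the vehicle arrays in either line. The difference was -4.45 ± 0.0951 (limma adjusted p = 1.09e-14); it was -2.47 on the next brightest probe set and not called on 3 dim ones.

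TMT1A, a methyltransferase-like protein of lipid droplets, read 9.98, 10.01, 10.17 and 10.06 on vehicle and 11.81, 11.75, 11.79 and 11.89 with 2DG in MCF10A. In MDA-MB-231 it read 6.81, 7.30, 7.08 and 7.07 and 5.66, 5.25, 5.55 and 5.81. It was higher in MCF10A throughout, and the gap between the lines grew with 2DG, with a difference of -3.25 ± 0.15 (limma adjusted p = 3.44e-11). The other 3 probe sets of TMT1A, all dimmer, gave -0.17, -0.09 and 0.04 and were not called.

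ZSCAN31, a zinc finger protein, read 6.85, 6.45, 6.64 and 6.57 on vehicle and 8.42, 8.29, 8.45 and 8.23 with 2DG in MCF10A. In MDA-MB-231 the values were 6.17, 6.37, 6.18 and 6.19 and 4.71, 4.70, 4.73 and 4.93. The lines were near each other on vehicle and far apart with 2DG (difference -3.18 ± 0.115, limma adjusted p = 2.19e-12). DIXDC1, a regulator of WNT signals, read 9.71, 9.76, 9.80 and 9.78 and 11.09, 11.08, 11.03 and 11.11 in MCF10A. The MDA-MB-231 values of DIXDC1 were 6.77, 6.62, 6.88 and 6.57 on vehicle and 4.91, 5.26, 4.86 and 5.40 with 2DG. Its difference was -2.92 ± 0.14 (limma adjusted p = 5.48e-11), and its 2 dimmer probe sets were not called. HCFC1R1, which binds the cell cycle cofactor HCFC1, read 7.05, 7.12, 7.31 and 7.18 on vehicle and 8.34, 8.29, 8.33 and 8.44 with 2DG in MCF10A. Its MDA-MB-231 values were 10.00, 10.04, 10.02 and 10.03 on vehicle and 8.63, 8.63, 8.46 and 8.69 with 2DG. Here the lines drew together with 2DG, and the difference was -2.61 ± 0.0808 (limma adjusted p = 4.05e-13).

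The histone deubiquitinase MYSM1 (1.19 in MCF10A, -1.70 in MDA-MB-231), the collagen prolyl hydroxylase P3H2 (1.39 and -1.06), the actin-linked adaptor EPS8L2 (1.23 and -1.03), the inhibitor of coagulation TFPI (1.32 and -1.01), NREP (1.28 and -1.01) and the brain-type creatine kinase CKB (1.23 and -0.998) followed. P3H2 had a second, dimmer probe set with a difference of 0.015, which was not called. For TFPI the fall in MDA-MB-231 was seen on 2 of 5 probe sets; a probe set nearly as bright as the one used gave 1.04 and 0.18, and another 1.14 and 0.57. CXCR4, the receptor of the chemokine CXCL12, read 3.94 on average on vehicle and 7.36 with 2DG in MCF10A, a rise of 3.42. In MDA-MB-231, where it stood far higher at 11.73, it fell by 0.60 to 11.13. The other CXCR4 probe sets gave smaller rises in MCF10A of 1.45 and 1.62, with -0.705 and -0.73 in MDA-MB-231. The related receptor ACKR3, which binds the same chemokine, also rose in MCF10A, by 4.15, with -0.018 in MDA-MB-231. TNFSF10, the death ligand TRAIL (2.13 and -0.79), the stress keratin KRT16 (1.95 and -0.57), the mitophagy receptor BNIP3L (1.15 and -0.75), the clock repressor BHLHE41 (1.38 and -0.84), the Notch glycosyltransferase LFNG (0.71 and -1.16) and the interferon-induced TRIM22 (0.78 and -0.68) were also opposite. The other bright BNIP3L probe set, however, gave 1.66 and 0.31, a difference of -1.35 with the same sign of response in both lines. Without probe sets shared between transcripts, the difference of BHLHE41 was -0.075 and not called.

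The gap between the lines, as MDA-MB-231 minus MCF10A, changes with 2DG by exactly the difference of response. These genes were chosen by that difference, so the following counts are partly set by the choice and are descriptions. Of the 102 genes that rose in MDA-MB-231 and fell in MCF10A, 46 had the higher vehicle mean in MCF10A, and 31 changed the order of the lines with 2DG. Of the 165 with the reverse pattern, 94 had the higher vehicle mean in MDA-MB-231, and 65 changed order. The gap between the lines was larger with 2DG in 74 of 102 and 112 of 165 genes. The median gap went from 1.18 to 2.05 and from 0.85 to 1.55. Examples of an order that changed with a gap of at least 1 before and after are CXCL8 (MDA-MB-231 minus MCF10A, -3.69 on vehicle and 2.48 with 2DG), PTGS2 (-1.62 and 3.80), the amine oxidase MAOA (1.94 and -1.22), P3H2 (1.44 and -1.01) and TFPI (1.14 and -1.19). MAOA kept opposite signs of response on its other 2 bright probe sets, while P3H2 and TFPI depended on the probe set as described.

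PRSS35, a gene of the serine protease family, had the highest difference of all. It read 3.43, 3.56, 3.33 and 3.39 on the MCF10A vehicle arrays and 3.52, 3.47, 3.29 and 3.53 with 2DG. In MDA-MB-231, PRSS35 read 3.72, 3.74, 4.02 and 3.92 on vehicle and 10.43, 10.62, 10.79 and 10.47 with 2DG. The first 3 groups all lay under the low limit, and the treated MDA-MB-231 arrays stood alone above 10. PRSS35 rose by 6.73 in MDA-MB-231, its response in MCF10A had a 95% interval of -0.16 to 0.21, and the difference was 6.70 ± 0.123 (limma adjusted p = 2.98e-15). RELN, the secreted matrix protein reelin, read 5.48, 5.50, 5.56 and 5.80 and 5.85, 5.37, 5.46 and 5.60 in MCF10A. The MDA-MB-231 arrays read 6.38, 6.46, 6.32 and 6.21 without and 11.00, 11.29, 11.04 and 11.17 with 2DG. The RELN difference was 4.80 ± 0.141 (limma adjusted p = 2.13e-13), with an interval of -0.227 to 0.197 for MCF10A.

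Other genes that rose in MDA-MB-231, with a bounded response in MCF10A, were the basement membrane collagen COL15A1 by 3.07, FAM24B by 3.01, the lipopolysaccharide receptor TLR4 by 2.79, the nuclear receptor NR4A2 by 2.78, LRRC2 by 2.75 and ARHGAP9 by 2.70. All 4 probe sets of TLR4 gave differences, from 2.33 to 2.87. TMEM171 rose by 3.45 in MDA-MB-231 and fell by 0.35 in MCF10A, too little for the opposite class. The endoplasmic reticulum protein SDF2L1 rose by 1.495 in MDA-MB-231 and 0.15 in MCF10A. COL3A1, a fibroblast collagen, rose by 1.54 from 4.93 to 6.46, on a probe set shared between transcripts; its 2 unshared probe sets, which were dim, gave -0.085 and 0.105, and neither was called. COL3A1 is 1 of 11 measured fibroblast and immune markers. Of these, 3 had a called difference on the higher side and 2 on the lower side (all genes 22.3% and 23.6%). The low limit was passed in at least 1 group by 8 of them. The group means of these markers ran from 3.75 to 4.16 for LUM and PTPRC up to 8.10 and 8.72 for CD14 in MCF10A, and PECAM1 in MDA-MB-231 went from 7.28 to 8.21. Their part in any result was not tested.

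MAMDC2, an extracellular matrix protein, read 3.78, 3.40, 4.01 and 4.08 on vehicle and 3.93, 3.87, 3.92 and 4.06 with 2DG in MCF10A. In MDA-MB-231 it went from 6.71, 7.09, 6.96 and 6.87 to 4.45, 4.28, 4.35 and 4.40. Its vehicle values in MDA-MB-231 thus fell to near the low values it had in MCF10A throughout (difference -2.67 ± 0.165, limma adjusted p = 1.14e-09). LOXL1-AS1, an antisense RNA of the LOXL1 locus, read 7.65, 7.35, 7.59 and 7.44 and 7.81, 7.68, 7.93 and 7.74 in MCF10A. Its MDA-MB-231 values were 9.80, 9.76, 9.76 and 9.80 on vehicle and 7.35, 7.37, 7.48 and 7.32 with 2DG. MDA-MB-231 was the higher line on vehicle and the lower with 2DG (difference -2.68 ± 0.0916, limma adjusted p = 1.23e-12).

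In this class, the clock gene PER3 fell by 2.37 in MDA-MB-231, the RNA-binding protein MSI2 fell by 2.23, the mitochondrial carrier UCP2 fell by 2.20, PTPRG-AS1 fell by 2.16, the autophagy enzyme ATG10 fell by 2.11 and the insulin-like growth factor binding protein IGFBP1 fell by 2.07. UCP2 and IGFBP1 were high in MDA-MB-231 on vehicle (11.73 and 11.83) and low in MCF10A (5.39 and 4.71). For MSI2 the class depended on the probe set: the 2 of its other probe sets with the largest differences (-2.995 and -2.90) rose in MCF10A, by 1.40 and 1.49, and fell in MDA-MB-231. ATG10 gave -1.93 on its next brightest probe set, with 0.03 in MCF10A and -1.90 in MDA-MB-231, and was not called on 2 dimmer ones (0.025 and 0.27). UCP2 gave -0.87 on a dimmer one. The pyruvate dehydrogenase kinase PDK3 fell by 1.51 in MDA-MB-231 with 0.018 in MCF10A, the sterol factor SREBF1 fell by 1.07 with -0.03, and the glucosyltransferase ALG10 of N-glycan precursors fell by 1.48 with -0.26. PDK3 gave 0.285, -0.20 and -0.385 on dimmer probe sets, on 2 of which it also fell in MCF10A (-0.91 and -0.845), and SREBF1 gave 0.075, not called, on a dimmer one. The inhibitor of differentiation genes ID1 and ID3, targets of BMP signals, fell by 1.73 and 1.24 in MDA-MB-231 with -0.093 and -0.043 in MCF10A, while ID2 rose in both lines (0.64 in MCF10A, 2.65 in MDA-MB-231).

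**Figure D4:**
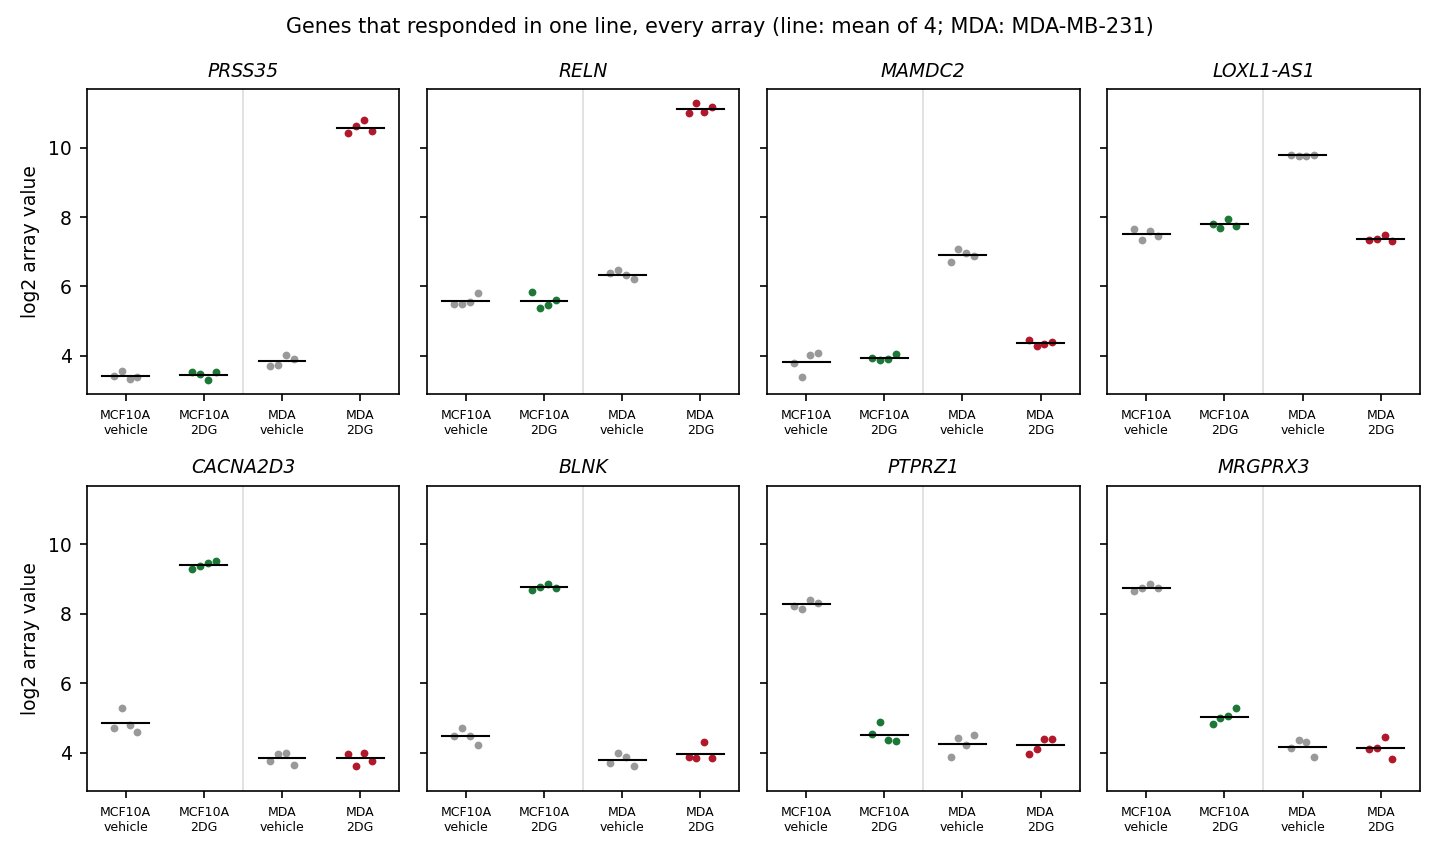
Log2 array value (y axis, shared) of 8 genes that responded in one line, on each of the 4 arrays per group (points), with the group mean as a line. PRSS35 and RELN rise and MAMDC2 and LOXL1-AS1 fall in MDA-MB-231 (upper row), and CACNA2D3 and BLNK rise and PTPRZ1 and MRGPRX3 fall in MCF10A (lower row); CACNA2D3 goes from a mean of 4.85 to 9.42 in MCF10A.

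MCF10A had the larger number of responses of one line, 479 against 241. CACNA2D3, an auxiliary subunit of voltage-gated calcium channels, read 4.72, 5.28, 4.80 and 4.60 on the MCF10A vehicle arrays and 9.29, 9.39, 9.46 and 9.52 with 2DG. In MDA-MB-231, CACNA2D3 read 3.76, 3.97, 3.98 and 3.64 on vehicle and 3.95, 3.61, 4.00 and 3.76 with 2DG. It stayed among the low values in MDA-MB-231, and the difference was -4.57 ± 0.181 (limma adjusted p = 5.67e-12). BLNK, an adaptor known from B cell receptor signalling, read 4.48, 4.70, 4.49 and 4.22 and 8.69, 8.78, 8.87 and 8.73 in MCF10A. BLNK in MDA-MB-231 read 3.69, 3.99, 3.86 and 3.60 and 3.88, 3.84, 4.30 and 3.83, so that one treated array, C, stood above the other 7. The BLNK difference was -4.12 ± 0.162 (limma adjusted p = 5.47e-12).

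The glucocorticoid-induced zinc finger factor ZBTB16 rose by 4.08 in MCF10A with 0.07 in MDA-MB-231. The glutathione peroxidase GPX2 rose by 3.80 with -0.21, and the RNA LINC02806 by 3.53 with 0.11. The calcium-binding protein S100A4 rose by 2.21 from 10.67 to 12.87 and thereby reached the level it had in MDA-MB-231, where it read 12.76 on vehicle and 12.70 with 2DG. The WNT receptor FZD7 rose by 2.36 in MCF10A with -0.15 in MDA-MB-231, and its other probe set gave 1.74 and 0.36. FZD2 had responses of 1.27 in MCF10A and -0.46 in MDA-MB-231, and met the definition neither of MCF10A alone nor of opposite responses. On its dimmer probe set the response lay in MDA-MB-231 instead (-0.0025 in MCF10A, -1.2 in MDA-MB-231), with a called difference of the same sign. The death inducer BCL2L11, also called BIM, rose by 1.90 with 0.14. Its next brightest probe set gave 1.09 and 0.65. A dimmer one gave 1.25 and 0.20, a called difference of -1.05, and 4 others gave differences between -0.095 and 0.12 that were not called. The coactivator PPARGC1A rose by 1.68 with -0.22, the small heat shock protein CRYAB by 1.89 with 0.15, the interferon-induced RSAD2 by 1.78 with 0.14, and OGA, the enzyme that removes O-GlcNAc, by 1.29 with 0.20. On its other probe sets OGA had responses of 0.67 to 3.62 in MDA-MB-231 as well, with differences of -1.22 to -0.22, so that a response of MCF10A alone held on the brightest probe set only. DCN, a matrix proteoglycan, rose by 1.77 with 0.078, but its unshared probe sets, all dim, differed among themselves. They gave 0.06, 0.0625 and 0.18, not called, and -0.965, called (adjusted p = 0.00355).

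PTPRZ1, a receptor tyrosine phosphatase, read 8.23, 8.15, 8.40 and 8.32 on vehicle and 4.53, 4.87, 4.35 and 4.32 with 2DG in MCF10A. On MDA-MB-231 vehicle arrays PTPRZ1 read 3.86, 4.42, 4.22 and 4.50, and 3.96, 4.11, 4.38 and 4.38 with 2DG. The treated MCF10A values came down to near those of MDA-MB-231, which were low with or without 2DG (difference 3.72 ± 0.202, limma adjusted p = 2.51e-10). MRGPRX3, an orphan receptor of the MAS-related family, read 8.67, 8.74, 8.85 and 8.75 and 4.83, 4.99, 5.04 and 5.29 in MCF10A. Its MDA-MB-231 values were 4.12, 4.37, 4.31 and 3.86 and 4.09, 4.14, 4.44 and 3.81. They were again low in both groups, and the difference was 3.67 ± 0.182 (limma adjusted p = 8.29e-11). Hyaluronan synthase HAS3 fell by 3.41 in MCF10A, the pentraxin PTX3 fell by 3.20, the T-box factor EOMES fell by 2.90 and the phospholipase PLA2G4A, which frees arachidonic acid for PTGS2, fell by 2.89. Their responses in MDA-MB-231 lay between -0.035 and 0.18. PTX3 was far from low in MDA-MB-231, at 12.10 on vehicle and 12.22 with 2DG. The gelatinase MMP9 fell by 2.49 in MCF10A with 0.19 in MDA-MB-231, the lipase inhibitor ANGPTL4 fell by 1.89 with -0.038, and the nucleotidase NT5E fell by 1.88 with 0.38. On its dimmer probe sets NT5E fell in MDA-MB-231 as well (-0.615, -0.355 and -0.35), with called differences of 0.775 to 2.03. The calgranulin S100A8 fell by 1.66 in MCF10A, where it read 13.76 on vehicle, and read 4.92 on vehicle in MDA-MB-231.

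Genes of cell division fell in both lines and by more in MCF10A. Of 40 measured mitosis genes, all 40 fell in MCF10A and 38 in MDA-MB-231, and the difference was called on the higher side in 39, with a median of 2.00. Of 38 S phase genes, 37 fell in MCF10A and 38 in MDA-MB-231. The difference was called on the higher side in 35 and on the lower side in 1, with a median of 1.48. Over all genes, 25.2% fell in MCF10A and 25.4% in MDA-MB-231. Called differences of all genes were 22.3% on the higher side and 23.6% on the lower side. MCM10, an initiator of replication, read 10.72, 10.77, 10.77 and 10.73 on the MCF10A vehicle arrays and 3.88, 3.98, 3.76 and 3.76 with 2DG. In MDA-MB-231, MCM10 read 10.85, 10.93, 10.84 and 10.85 on vehicle and 9.10, 9.13, 9.15 and 9.13 with 2DG. The lines were near each other on vehicle, and with 2DG MCF10A stood among the lowest values of the array while MDA-MB-231 stayed above 9 (difference 5.16 ± 0.0643, limma adjusted p = 4.29e-17). Its other 2 probe sets, almost as bright, gave smaller differences of 3.12 and 2.87, with falls in MCF10A of -4.93 and -4.75. The differences of the ubiquitin ligase adaptor DTL, the reductase subunit RRM2 and the kinetochore protein SPC25 were 3.98, 3.87 and 3.25. MKI67, which encodes the Ki-67 antigen, fell by 3.19 in MCF10A and had a response of 0.12 in MDA-MB-231 on its brightest probe set. Its other probe sets gave -0.61, -2.61 and -2.78 in MDA-MB-231 and differences of 2.61, 1.14 and 0.06, so that a response of MCF10A alone held on its brightest probe set but not on these. As these are bulk measures, fewer cells with a transcript and less of it per cell cannot be told apart.

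Histone genes showed the lowest median difference of any list, -1.54 over 12 measured members, 10 of them called on the lower side and 1 on the higher side. Over all genes, 23.6% were called on the lower side and 22.3% on the higher side. In MCF10A 9 histone genes rose and 2 fell (all genes 29% and 25.2%). In MDA-MB-231 1 rose and 6 fell (all genes 25.5% and 25.4%). H4C8 and H2AC6 rose by 3.56 and 3.53 in MCF10A, with -0.13 and 0.13 in MDA-MB-231, and the linker histone H1-2 by 2.98 with -0.15. Histone genes are near-identical copies, so single members are uncertain, and most such transcripts lack the poly(A) tail on which 3' labelling relies. The variant H2AZ1, made throughout the cell cycle, fell by 0.87 in MCF10A and by 0.31 in MDA-MB-231.

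Of 28 measured FOXO targets and insulin pathway genes, 20 had a called difference on the lower side and 3 on the higher side. The median was -0.67, and over all genes the called shares were 23.6% and 22.3%. In MCF10A 24 rose and none fell (all genes 29% and 25.2%), and in MDA-MB-231 19 rose and 4 fell (all genes 25.5% and 25.4%). The adaptor IRS1 was opposite (0.89 in MCF10A and -0.79 in MDA-MB-231), its relative IRS2 rose by 2.25 and 0.58, and the ubiquitin ligase FBXO32 by 2.50 and 0.51. An FBXO32 probe set nearly as bright gave 2.49 in MCF10A and 0.0475 in MDA-MB-231, and a dimmer one 0.44 and -0.75. FOXO1 rose by 2.24 and 1.08. The pseudokinase TRIB1 rose by 1.70 in MDA-MB-231 with 0.17 in MCF10A. Insulin was in the MCF10A medium alone, and its part in these differences was not tested. Of 22 p53 targets, 14 were called on the lower side and 4 on the higher side (all genes 23.6% and 22.3%). Their median difference was -0.35. TP53INP1 rose by 3.34 and 0.99 (difference -2.35, and 0.043, not called, on a dimmer probe set), and the reductase subunit RRM2B (0.60 in MCF10A, -1.24 in MDA-MB-231) and the repair protein XPC (0.57 and -1.05) were opposite.

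Glucocorticoid targets were divided, with 10 of 19 called on the higher side and 8 on the lower side (all genes 22.3% and 23.6%). PDK4, the pyruvate dehydrogenase kinase, rose by 5.37 in MCF10A and 1.05 in MDA-MB-231. On its dimmer probe sets PDK4 had responses of 0.0125 and 0.095 in MDA-MB-231. FKBP5, a cochaperone of the glucocorticoid receptor, had opposite responses of 0.57 and -1.57. Hydrocortisone, a glucocorticoid, was likewise in the MCF10A medium alone. Of 10 LXR targets, 7 were called on the lower side and 1 on the higher side (all genes 23.6% and 22.3%). ABCG1, a sterol exporter, read 4.91, 4.99, 4.93 and 5.08 on the MCF10A vehicle arrays and 10.18, 10.20, 10.13 and 10.29 with 2DG. Its MDA-MB-231 values were 4.27, 4.41, 4.27 and 4.25 on vehicle and 5.03, 5.05, 5.41 and 5.31 with 2DG. On this probe set ABCG1 rose in both lines without overlap of treated and vehicle arrays, by far more in MCF10A (difference -4.32 ± 0.107, limma adjusted p = 4.46e-14). Its other probe sets gave differences between -1.67 and -2.52, with responses of -0.0975 to 0.2275 in MDA-MB-231. CAPN8, a calpain protease, read 4.75, 4.80, 4.50 and 4.49 and 9.49, 9.52, 9.61 and 9.51 in MCF10A. CAPN8 in MDA-MB-231 read 4.33, 4.38, 4.35 and 4.01 on vehicle and 4.73, 4.69, 4.77 and 4.79 after 2DG, a small rise with one low vehicle array, D (difference -4.42 ± 0.116, limma adjusted p = 7.07e-14). KLRC3, a natural killer receptor gene with near-identical copies and therefore uncertain, rose by 4.52 and 0.33.

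Of 36 unfolded protein response genes, 30 rose in MCF10A and 32 in MDA-MB-231 (all genes 29% and 25.5%). A called difference was on the higher side in 22 against 7 on the lower side, with a median of 0.36. Over all genes, here and for the next lists, 22.3% were called on the higher side and 23.6% on the lower side. The chaperone HSPA5, also called BiP, rose by 0.81 in MCF10A and 1.39 in MDA-MB-231, HYOU1 by 1.00 and 2.30, and HSP90B1 by 0.76 and 1.79. Cytosolic heat shock genes had 12 of 19 called on the higher side and 4 on the lower side, with a median of 0.50. HSPH1 fell by 1.37 in MCF10A and rose by 0.45 in MDA-MB-231, while HSPB1, a small heat shock protein, rose by 0.56 and fell by 0.80. Other HSPH1 probe sets gave 1.12 and, on the dimmest, -0.835 in MDA-MB-231, with called differences of 2.76 and 0.535. All 29 measured proteasome genes fell in MCF10A (all genes 25.2%), and in MDA-MB-231 20 fell and 2 rose (all genes 25.4% and 25.5%). Their difference was called on the higher side in 22 and on the lower side in 1, with a median of 0.38. PSMD2 fell by 1.04 in MCF10A with 0.10 in MDA-MB-231, and PSMD12 fell by 0.89 with -0.053. The other PSMD12 probe set turned the difference (-0.275, adjusted p = 0.0012), with responses of -1.42 and -1.69. Ribosome biogenesis genes had 28 of 35 called on the higher side and none on the lower side, with a median of 0.43; the nucleolar protein LYAR fell by 1.57 in MCF10A with 0.17 in MDA-MB-231, and the helicase DDX10 fell by 0.35 and rose by 0.94.

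**Figure D5:**
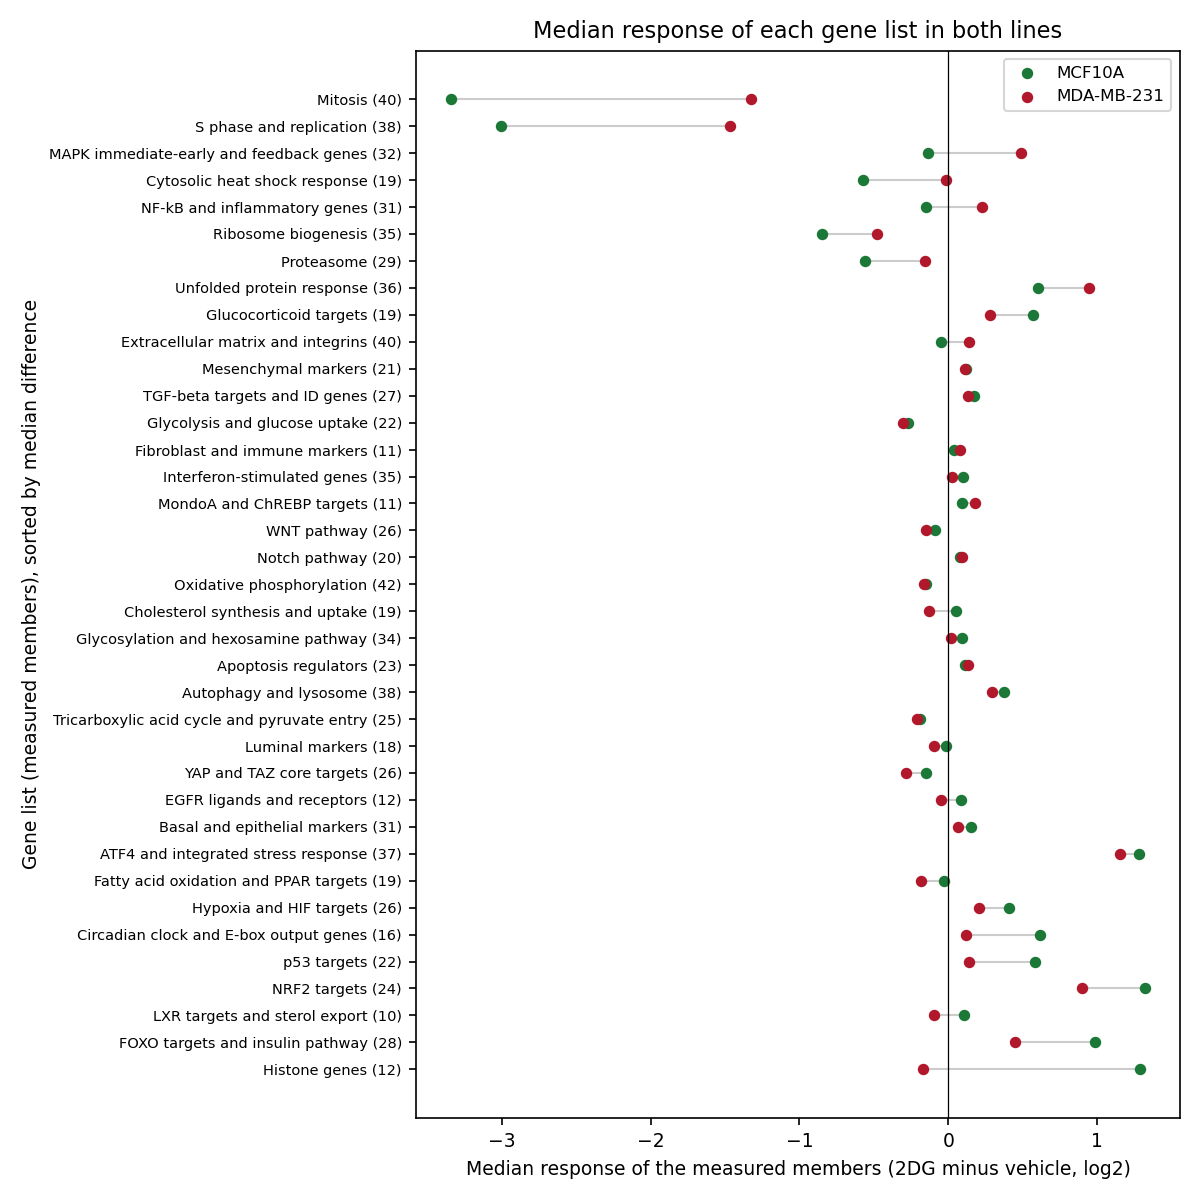
Median response to 2DG (log2, x axis) of the measured members of each of 37 gene lists in MCF10A (green) and MDA-MB-231 (red), with the number of measured members in brackets, sorted by the median difference (y axis). Mitosis and S phase genes at the top have medians of -3.34 and -3.01 in MCF10A against -1.33 and -1.46 in MDA-MB-231, and histone genes at the bottom 1.29 against -0.17.

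Of 22 glycolysis genes, 10 were called on the higher side and 5 on the lower side, with a median difference of 0.08. Over all genes the called shares were 22.3% and 23.6%. HK2, the hexokinase induced by growth signals, fell by 2.29 in MCF10A and by 0.62 in MDA-MB-231 (difference 1.66 ± 0.0806, limma adjusted p = 6.25e-11), but its 2 dimmer probe sets gave differences of 0.04 and 0.075, neither called, with responses of -1.01 to -0.90 in both lines. PFKFB3, an activator of glycolysis, fell by 0.41 in MCF10A and rose by 0.86 in MDA-MB-231. The glucose transporter SLC2A1 rose by 0.16 and fell by 0.35, with a difference of -0.50, which was -0.155 and not called on probe sets that are not shared. TXNIP and ARRDC4, targets of the glucose-sensing factor MondoA, rose in both lines, by 2.59 and 3.26 in MCF10A and by 1.88 and 1.91 in MDA-MB-231. Of 42 oxidative phosphorylation genes, 15 were called on the higher side and 16 on the lower side, and none had a strong difference; ATP5MC1 (-1.56 and -0.83) and UQCRC1 (0.41 and -0.048) had the largest ones.

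The core targets of YAP and TAZ, coactivators of the Hippo pathway, had 8 of 26 called on the higher side and 14 on the lower side. Their median was -0.20, and over all genes the called shares were 22.3% and 23.6%. CCN1 fell by 0.68 in MCF10A and rose by 0.17 in MDA-MB-231 (difference 0.85, adjusted p = 1.78e-08). CCN2 fell by 0.62 and 0.45, a difference of 0.18 ± 0.0709 that did not pass (limma adjusted p = 0.056). It passed without MCF10A vehicle replicate B (0.19, adjusted p = 0.0492), without MCF10A 2DG replicate B (0.19, adjusted p = 0.0459) and without MCF10A 2DG replicate C (0.21, adjusted p = 0.0243). ANKRD1 was near the lowest values in MCF10A (4.30 on vehicle) and high in MDA-MB-231 (12.06). Its difference of -0.56 did not pass (limma adjusted p = 0.137), and was -0.83 (adjusted p = 0.00087) without MDA-MB-231 vehicle replicate B. YAP1 had a difference of -0.19 (adjusted p = 0.0172) and WWTR1, which encodes TAZ, of 0.38 (adjusted p = 2.23e-05). Both depended on the probe set: a dimmer YAP1 probe set gave 0.20 (adjusted p = 0.00628), and 2 dimmer ones of WWTR1 gave 0.965 and 1.79. FJX1 fell by 2.79 and 0.86, and IGFBP3 was opposite (1.19 in MCF10A, -0.69 in MDA-MB-231).

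Among the remaining lists, the NRF2 targets had 15 of 24 members called on the lower side and 7 on the higher side (median -0.42), with AKR1C1 rising by 3.78 in MCF10A and 2.42 in MDA-MB-231 and AKR1B10 by 2.35 and 1.07. AKR1C1 has close relatives, so its value is uncertain. The counts of these lists stand beside called shares over all genes of 22.3% on the higher side and 23.6% on the lower side. Hypoxia targets had 15 of 26 on the lower side and 7 on the higher side, clock genes 8 of 16 and 4, and basal epithelial markers 15 of 31 and 8. The extracellular matrix list had 19 of 40 on the higher side and 11 on the lower side, and the TGF-beta and ID list 11 of 27 and 10, with the BMP antagonist NOG at 1.32 in MCF10A and -0.50 in MDA-MB-231. Luminal markers had none of 18 on the higher side and 8 on the lower side, among them AGR2, which rose by 3.18 and 1.59. Autophagy genes had 9 of 38 on the higher side and 13 on the lower side, with GABARAPL1 rising by 2.08 and 1.06. Cholesterol genes had 5 of 19 and 8, with DHCR7, the last enzyme of cholesterol synthesis, at 0.44 and -0.63. Mesenchymal markers had 8 of 21 and 9, with the repressor ZEB2 rising by 2.18 and 0.47, and Notch genes 6 of 20 and 3, with HES4 at -1.51 and -0.44. A dim ZEB2 probe set gave 1.43 in MCF10A and -1.17 in MDA-MB-231, while another gave 2.445 and 0.595. The lists of fatty acid oxidation, interferon, glycosylation, apoptosis, WNT, tricarboxylic acid cycle and MondoA genes, had median differences between -0.25 and 0.07, against 0.005 over all genes.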

How the data were processed

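RNA of 16 cultures was hybridised to Affymetrix U133 Plus 2.0 arrays after 3' labelling. The deposited values are log2 probe set summaries that the authors made by RMA, per the labels; the version, and whether all arrays were normalized together, are not given in the sources used here. Scanner files were not used. Of 54675 probe sets, 41091 had 1 gene in the platform annotation, 1801 had several and 11777 were without a gene row; symbols were updated through the Entrez number for 41037. The probe set with the highest mean over 16 arrays stood for a gene, which left 19775 genes, with no filter on low values. Low values on arrays are compressed and the number of arrays limits the precision.

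A linear model with 4 group means was fitted to all genes in limma 3.58.1 (R 4.3.3), with moderated variances on 12 residual degrees of freedom, and gave the response in each line and the difference of the responses. P-values were adjusted by the Benjamini-Hochberg method over all genes. The same code was tested on simulated data. The replicates are independent and were performed in parallel per the design text. The SEs and p-values therefore measure the spread between cultures run in parallel. The replicate letters were treated as names, since the 24 correlations between same-lettered arrays of different groups, as deviations from group means, lay between -0.099 and 0.088. Between vehicle and 2DG arrays, A to D, they were 0.085, 0.04, 0.071 and 0.088 in MCF10A. In MDA-MB-231 they were 0.005, 0.01, 0.019 and -0.099. Counts with a replicate block are given at the end.

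The genes named were the 12 strong differences of largest size each way, the 12 of each opposite class with the largest smaller response, the 8 of each class of one line with the largest response, up to 2 called members of each of 37 gene lists with the largest difference, and 14 genes whatever their values (TXNIP, ARRDC4, HK2, SLC2A1, CCN1, CCN2, ANKRD1, YAP1, WWTR1, HSPA5, DDIT3, TRIB3, EGR1 and ATF4). The count over next brightest probe sets was made after seeing the data. Other list members, and MAOA, were named after their values were seen. The comparison, the lists (1005 genes, 89 of them not measured) and the definitions were chosen with earlier results of these data known, so counts over them are descriptions. Of the genes chosen by this rule, 2 are not reported here. Alternatives were the mean of all probe sets, no shared probe sets, no dim genes, variance settings, array weights, the actin ratio as a covariate, a shift to equal array medians, other size limits, a replicate block and each array left out.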

Additional observations from a re-analysis of the deposited data

Results flagged for a closer look

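In 7 of 88 groups of 4 arrays looked at, 1 array stood apart from the other 3 by more than Dixon's 95% limit, and chance alone gives about 1 in 20. On the MDA-MB-231 vehicle arrays, replicate B stood apart in MCM10 (10.93, others 10.84 to 10.85), ABCG1 (4.41, others 4.25 to 4.27) and ZSCAN31 (6.37, others 6.17 to 6.19), and its actin 3'/5' ratio was 1.09 on the log2 scale against 0.38 to 0.47. Replicate D of the same group read 4.01 for CAPN8 against 4.33 to 4.38. With 2DG in MDA-MB-231, replicate D read 4.93 for ZSCAN31 against 4.70 to 4.73, and replicate C read 4.30 for BLNK against 3.83 to 3.88. These gaps are small beside the differences of response of the 5 genes, and whether the actin ratio has a part in them was not tested.

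The response to 2DG differed between the lines by the test of the difference in 4401 genes on the higher side for MDA-MB-231 and 4664 on the lower side, with 736 and 1019 strong ones. These include the opposite classes of 102 and 165 genes, the 94 and 147 genes that rose and fell in MDA-MB-231 with a bounded response in MCF10A, and the 312 and 167 that rose and fell in MCF10A with a bounded response in MDA-MB-231.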

How the results depend on the processing

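With the mean of all probe sets of a gene, strong differences on the lower side numbered 661, opposite responses 64 (rising in MDA-MB-231; 58 shared with the 102) and 88 (70 shared with the 165), and falls of MDA-MB-231 alone 81 (61 shared with the 147). A size of 1.5 left 327 and 375 strong differences. A band of 0.3 for the other line left 43 rises and 62 falls of MDA-MB-231 and 149 and 88 of MCF10A. Opposite responses numbered 180 and 315 with at least 0.3 in each line and 13 and 11 with at least 1. With the brightest unshared probe set, which 98 of 129 named genes have, the difference turned in TMT1A (0.04), P3H2 (0.015), DCN (0.06) and COL3A1 (-0.085), none of them called; other unshared probe sets kept the sign in DCN (-0.965, called) and COL3A1 (0.105, not called). Leaving out each array in turn gave 4241 to 4511 and 4503 to 4634 called differences, 721 to 757 and 999 to 1034 strong ones, 99 to 105 and 159 to 171 opposite responses, 85 to 99 and 138 to 152 responses of MDA-MB-231 and 289 to 316 and 160 to 172 of MCF10A. The difference of YAP1 was -0.077 (limma adjusted p = 0.277) with the mean of all probe sets and -0.155 (adjusted p = 0.0613) with arrays shifted to the same median; over its alternatives CCN2 had adjusted p as low as 0.0165. With a replicate block there were 4355 and 4627 called and 736 and 1020 strong differences, and the call of none of 129 named genes changed. The cause of these changes was not tested. Dim genes limit what can be seen, since a gene low in a line cannot show a fall there.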
